A study of Mus musculus with 3 samples.

Results

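Chromatin at 10 genes for tumor necrosis factor (TNF) receptors was described in long-term HSCs (hematopoietic stem cells), which can rebuild the blood over long periods. The 10 genes were fixed by name from 31793 annotated mouse genes. Tnfrsf18 encodes GITR, the antigen CD357, and Cd27 encodes CD27, and both antigens were read as antibody tags in the same cells. The others were Tnfrsf4, Ltbr, Tnfrsf1a, Tnfrsf1b, Tnfrsf9, Tnfrsf14, Fas and Cd40. The cells came from bone marrow of wild-type C57BL/6J female mice aged 24 months, enriched for c-Kit and sorted as negative for lineage markers, CD34 and CD48 and positive for Sca-1, CD150 and c-Kit. DOGMA-seq, in which open chromatin (by ATAC), transcripts and antibody-bound oligos of each cell are sequenced, gave 3 libraries of 1 pool, for which the labels name no treatment. Each group of cells below was therefore a subset of 1 sample, and no test between groups was run. The study asked whether antigens, CD357 and CD27 among them, separate platelet-biased from multi-lineage HSCs.

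TNF receptors are membrane proteins that bind trimeric ligands of the TNF family and recruit TRAF adaptors or, through a death domain, adaptors of cell death. Many of them feed into NF-kB, and CD27, GITR, OX40 and 4-1BB are best known as costimulatory receptors of T cells. CD27 is also found on part of the hematopoietic stem and progenitor cells of the mouse.

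The ATAC library held 43705382 fragments, each a stretch of DNA between a pair of transposase insertions. Of 4369 barcodes called as cells, 3724 also had antibody counts, and 3629 of these had at least 10 tags and were kept. The kept cells held 38498362 nuclear fragments, with a median of 10287 per cell (range 3853 to 45069) and a median of 29 tags. Among cell type markers, promoters of 3 of 8 HSC genes and 4 of 5 megakaryocyte genes lay above the median of protein-coding promoters. None of 8 T cell, 6 B cell or 6 macrophage and granulocyte genes did, and 1 of 5 erythroid genes did. Per 1000000 nuclear fragments (CPM), Kit, the receptor of stem cell factor, had 43.7 at its promoter, whereas the annotated first start of Mecom, an HSC transcription factor, had 0.494. The genes of 2 antigens used in the sort, Slamf1 (CD150) and Ly6a (Sca-1), were below the median, with 4.29 and 2.99. Ranges in parentheses are exact 95% intervals (Poisson for levels, binomial for shares, conditional binomial for ratios), which take in counting error alone.

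The antibodies were read through 15-base tags, shown here because every CD357 and CD27 count below is a count of one of these oligos.
CD357: ggcactctgtaacat
CD27: caaggtatgtcactg
CD357 gave 3.25 tags per cell (3.20 to 3.31), with a median of 3 and a maximum of 24, and 85.3% of cells carried at least 1 tag. CD27 gave 0.910 tags per cell (0.880 to 0.942), with a median of 1 and a maximum of 14, and 56.5% of cells carried at least 1. CD357 thus took 10.3% of all tags and CD27 2.89%. Between cells the variance was 2.74 times the mean for CD357 and 1.26 times for CD27, which the intervals of the means do not take in. The share of cells that unbound tags alone would mark was not tested, because no cell type lacking these antigens was sorted.

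The 10 promoters were read as fragments overlapping 1 kb on each side of the most upstream annotated start, scaled to CPM by the nuclear fragments of the cells counted. Of the 10, 6 lay above the median of 21938 protein-coding promoters (9.92 CPM). All 10 lay above the 95th percentile of 1093 olfactory receptor promoters (0.338), a family whose median here was 0.026. Levels ran from 33.4 at Tnfrsf9 to 1.45 at Tnfrsf4, and the intervals of neighbouring genes in this order were set against each other. The ratio of neighbours had an interval that included equality for 2 of 9 pairs, Tnfrsf1a with Tnfrsf1b and Cd27 with Fas.

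**Figure D1:**
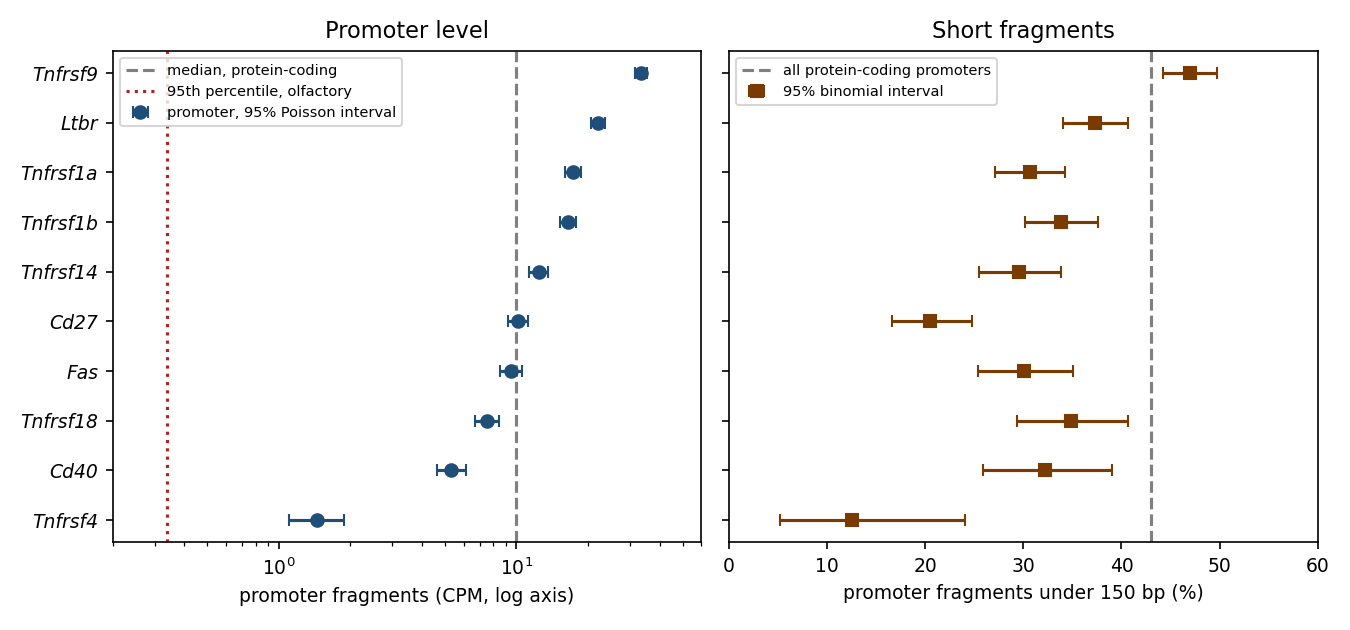
Left, promoter fragments in CPM (log axis) for the 10 genes, with 95% Poisson intervals; the dashed line is the median of protein-coding promoters and the dotted line the 95th percentile of olfactory receptor promoters. Right, the percentage of promoter fragments shorter than 150 bp with 95% binomial intervals; Tnfrsf4 and Cd27 have the lowest values, 12.5% and 20.5%.

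Tnfrsf18 lies at chr4:156026164-156028895 on the plus strand (all coordinates are mm10). Its promoter held 290 fragments, or 7.53 CPM (6.69 to 8.45), at the 45.5th percentile of protein-coding promoters. A fragment was seen in 255 cells (7.03%), and 34 of these had more than 1. The signal was compact: 87.3% of the fragments over the gene and 2 kb upstream lay in the promoter window. Its open site, called where insertions exceeded the local background, held 250 fragments in 500 bp and ranked at the 71.9th percentile of all 76066 sites.

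Tnfrsf4 encodes OX40 and lies next to Tnfrsf18 in the same direction, at chr4:156013843-156016612. Its promoter held 56 fragments, or 1.45 CPM (1.10 to 1.89), the lowest of the 10, and 1.41% of cells had a fragment there. No open site was called at its start. The nearest, 4108 bp downstream of that start, held 74 fragments and ranked at the 27.3rd percentile. Of the promoter fragments of Tnfrsf4 12.5% (5.18 to 24.1%) were short, that is, under 150 bp and no longer than the DNA of about 1 nucleosome. Of all nuclear fragments 33.2% were short. Over all protein-coding promoters 43.0% were, a share pooled over fragments and so weighted to the most open promoters.

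Downstream of Tnfrsf18 the chromatin was more open than at its start. The site 5587 bp downstream, at the start of the noncoding gene Gm16008, held 354 fragments and ranked at the 79.8th percentile. The intergenic site at 7487 bp held 323 and ranked at the 78.0th percentile. A further rise at 8.95 kb (940 insertions per kb), in the 3' part of Ttll10, was not called as a site. These sites lay within 20 kb of both receptor genes, so that 4 sites were shared by the pair, and which gene they belong to was not tested.

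The 200 bases before the starts of this pair and of Cd27 and Ltbr are given 5' to 3' on the strand of each gene, from RefSeq GRCm38.p6. They contrast a barely open promoter (Tnfrsf4), those of both antigens, and the most open promoter with no second gene (Ltbr). Capitals mark matches on either strand to the letters of 7 motifs (ETS, RUNX, GATA, AP-1, NF-kB, KLF/SP and E-box).
Tnfrsf18, chr4:156025964-156026163, plus strand: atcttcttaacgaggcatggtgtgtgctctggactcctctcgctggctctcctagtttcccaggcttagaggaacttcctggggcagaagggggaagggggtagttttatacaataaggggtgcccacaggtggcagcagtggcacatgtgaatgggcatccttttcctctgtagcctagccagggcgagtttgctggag
Tnfrsf4, chr4:156013643-156013842, plus strand: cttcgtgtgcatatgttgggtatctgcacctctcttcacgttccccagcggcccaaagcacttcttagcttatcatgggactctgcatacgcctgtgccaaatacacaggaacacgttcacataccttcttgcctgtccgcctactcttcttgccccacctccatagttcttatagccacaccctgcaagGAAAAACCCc
Cd27, chr6:125237011-125237210, minus strand: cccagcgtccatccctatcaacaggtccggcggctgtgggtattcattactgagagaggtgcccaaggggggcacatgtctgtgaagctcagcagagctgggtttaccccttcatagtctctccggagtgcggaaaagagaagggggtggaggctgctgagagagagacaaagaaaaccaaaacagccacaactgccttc
Ltbr, chr6:125313886-125314085, minus strand: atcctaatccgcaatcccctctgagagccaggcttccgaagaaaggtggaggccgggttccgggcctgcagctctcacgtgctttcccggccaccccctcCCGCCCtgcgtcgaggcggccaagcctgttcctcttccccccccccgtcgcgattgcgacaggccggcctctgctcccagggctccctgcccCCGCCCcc
Neither antigen gene held the letters searched for any of the 7 motifs in these bases. Other forms of the motifs, such as E-boxes with letters other than CATCTG, were not searched. The NF-kB letters stood directly before the start of Tnfrsf4, the least open of the 10, and Ltbr had 2 KLF/SP matches.

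Over the longer window of 250 bases before to 50 after the start, both strands were searched for the same letters. The KLF/SP letters GGGCGG occurred in 6 of 10 receptor promoters, against 43.0% of all protein-coding promoters. The ETS letters CCGGAAG occurred in 2 (Tnfrsf1b and Tnfrsf9, 10.8% of all), and the E-box letters CATCTG in 3 (Cd27, Tnfrsf1a and Tnfrsf14, 15.2% of all). At Tnfrsf14 the GATA letters AGATAA also occurred, as in 10.2% of all. At Fas the AP-1 letters TGANTCA occurred, as in 6.91% of all. The NF-kB letters GGGNNTTTC occurred at Tnfrsf4 alone of the 10 and in 4.46% of all. None of the 10 held the RUNX letters TGTGGT, which 15.3% of all did. The 300 bases held 33 CpG at Tnfrsf9, 23 at Ltbr, 14 at Fas, 13 at Tnfrsf1b and 11 at Tnfrsf1a. Cd27, Tnfrsf4 and Cd40 held 7, Tnfrsf14 held 6 and Tnfrsf18 held 4, below the median of 11 over all protein-coding promoters.

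Cd27 lies at chr6:125232622-125237010 on the minus strand. Its promoter held 391 fragments, or 10.2 CPM (9.17 to 11.2), at the 50.3rd percentile, in 9.34% of cells. The signal was broad and low rather than a single peak. Of the fragments of the gene 56.3% lay in the promoter window. This share was lower at Tnfrsf1a (50.6%), Tnfrsf4 (50.5%), Cd40 (43.0%) and Tnfrsf1b (21.6%), and higher at the remaining members. Of the promoter fragments of Cd27 20.5% (16.6 to 24.8%) were short. Over the gene and 2 kb upstream Cd27 had 2.82 CPM per kb, the highest of the 10 per length, at the 82.3rd percentile. Of the fragments over this region 4.76% also overlapped the promoter of Tapbpl, a peptide editor of MHC class I loading.

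At Cd27, 2 sites lay at the start. The site at 41 bp upstream held 212 fragments (67.1st percentile) and that at 541 bp upstream held 158 (56.7th). A stronger site lay 4741 bp upstream, in an exon of an annotated long transcript of Vamp1, a vesicle fusion gene. It held 327 fragments in 500 bp, and 56.6% of the fragments over its called 400 bp were short. The promoter and this site had a fragment in the same cell in 16 cells, against 34.0 from the depth of the cells (observed over expected 0.471, 0.269 to 0.765). Over 6546 pairs of neighbouring sites 2 to 10 kb apart with 150 to 1000 fragments each, that ratio had a median of 0.936. Of these pairs 95% ran from 0.601 to 1.40. They paired called sites, whereas the Cd27 value pairs a promoter window with a site, so the range is not a matched one. The most open site in reach, at the start of Vamp1 21459 bp downstream, held 1694 fragments and ranked at the 98.2nd percentile.

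**Figure D2:**
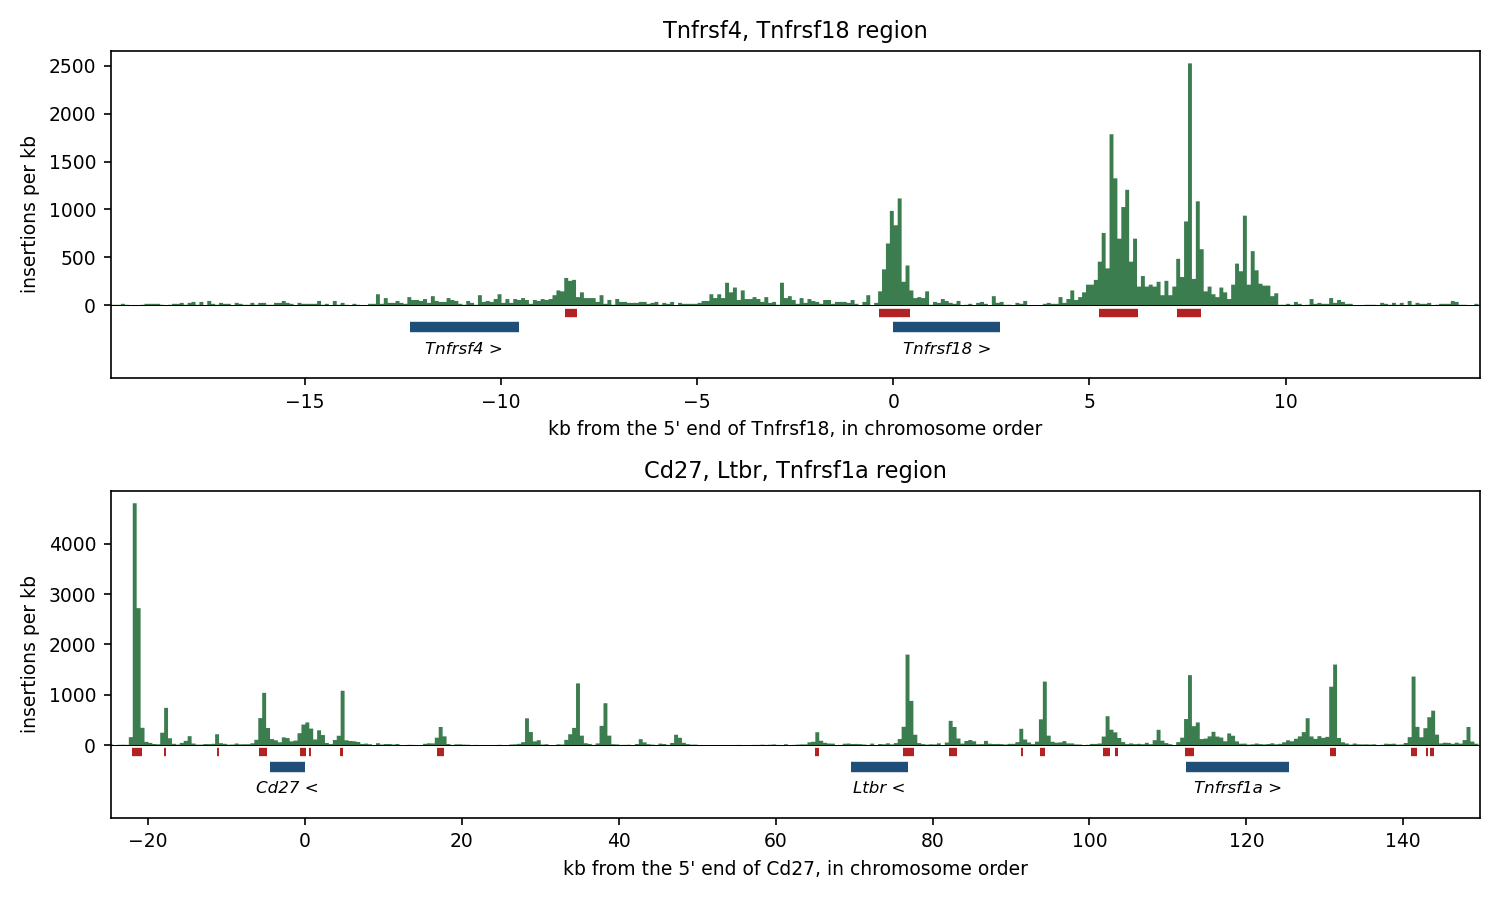
Transposase insertions per kb over the region of Tnfrsf4 and Tnfrsf18 (100-bp bins) and of Cd27, Ltbr and Tnfrsf1a (500-bp bins), in kb from the 5' end of Tnfrsf18 and of Cd27; blue bars are the genes with their direction, red bars the open sites within 20 kb of a member. Tnfrsf4 has no site at its start, and the highest signal of the lower panel is the start of Vamp1.

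Ltbr encodes the lymphotoxin beta receptor and lies near Cd27, at chr6:125306571-125313885. With 847 promoter fragments (22.0 CPM, 20.5 to 23.5) it was the most open promoter that no other gene shared. A fragment was seen in 19.2% of cells, and 87.7% of the fragments of the gene lay at the promoter. Its start site ranked at the 88.7th percentile. Promoter fragments of Cd27 and Ltbr occurred together in 62 cells, against 82.6 from depth (0.751, 0.576 to 0.963). The range of neighbouring site pairs given above covers distances of 2 to 10 kb, and none was computed for pairs as far apart as these promoters. Of 10 pairs of promoters and sites read in this way, the other 8 had an interval that included 1, with ratios from 0.743 (the Tnfrsf18 promoter and its site at 7487 bp) to 1.71 (the promoters of Tnfrsf18 and Tnfrsf4).

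Tnfrsf1a and Tnfrsf1b encode the receptors TNFR1, which carries a death domain, and TNFR2. Tnfrsf1a (chr6:125349362-125362484) had 666 promoter fragments, or 17.3 CPM (16.0 to 18.7). The insertions peaked inside the gene, and the site lay 389 bp downstream of the first start, near a further annotated start at 361 bp, where the window held 720 fragments. An intronic site of Scnn1a, an epithelial sodium channel gene, lay between Ltbr and Tnfrsf1a and within 20 kb of both. It held 425 fragments and ranked at the 82.9th percentile.

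Tnfrsf1b (chr4:145213463-145246870) had 633 promoter fragments, or 16.4 CPM (15.2 to 17.8). Its accessibility was spread over the gene, and 21.6% of its 2934 fragments lay in the promoter window, the lowest share of the 10. Within 20 kb it also had the most sites, 11, against 8 at Cd27 and at Tnfrsf1a and 4 or 5 at the remaining members. A longer gene gave a longer stretch to search, and some of the 11 sites lay outside the gene, among them the start of Vps13d. The strongest that was not a start, 5719 bp into the gene, held 673 fragments (89.1st percentile), more than the start site with 521 (85.8th). The central 200 bases of this intronic site are shown because they were more open than the promoter and held NF-kB and E-box letters.
Tnfrsf1b intron, chr4:145241051-145241250, minus strand: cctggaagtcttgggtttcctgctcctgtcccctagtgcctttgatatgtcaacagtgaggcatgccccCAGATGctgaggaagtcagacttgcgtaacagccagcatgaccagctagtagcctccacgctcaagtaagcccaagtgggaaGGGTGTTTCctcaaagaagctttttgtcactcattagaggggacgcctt

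Fas, a death receptor at chr19:34290666-34327772, had 366 promoter fragments, or 9.51 CPM (8.56 to 10.5). Apart from its start site (304 fragments, 76.7th percentile), its sites were weak, with 36, 39 and 122 fragments. Per length of gene it was the lowest of the 10, at 0.367 CPM per kb. Tnfrsf14 encodes HVEM, which binds the ligand LIGHT, and lies at chr4:154921933-154928563. It had 477 promoter fragments, or 12.4 CPM (11.3 to 13.6), with the peak 412 bp inside the gene. Further annotated starts of Tnfrsf14 lay on both sides of that peak, at 361 and 486 bp. Intergenic sites 15888 bp upstream and 23912 bp downstream of its first start were more open, with 558 and 628 fragments. Cd40, the costimulatory receptor of B cells and antigen-presenting cells at chr2:165055627-165072948, had 205 promoter fragments, or 5.32 CPM (4.62 to 6.11). A site 19524 bp downstream of its start held 304 fragments, against 144 at the start.

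Tnfrsf9 encodes 4-1BB and lies at chr4:150914562-150946102. Its first annotated start had the highest value of the 10, with 1285 fragments, or 33.4 CPM (31.6 to 35.3), in 28.3% of cells. This window also held a start of Park7, a gene of oxidative stress defence on the opposite strand, and 1275 of the 1667 fragments of Tnfrsf9 overlapped the promoter of Park7. The downstream starts of Tnfrsf9 were barely open, with 14 fragments in the windows at 5593 and 5628 bp and at most 105 in the windows further in. No site was called at any of them. The share of the 33.4 CPM that belongs to each gene cannot be told apart.

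**Figure D3:**
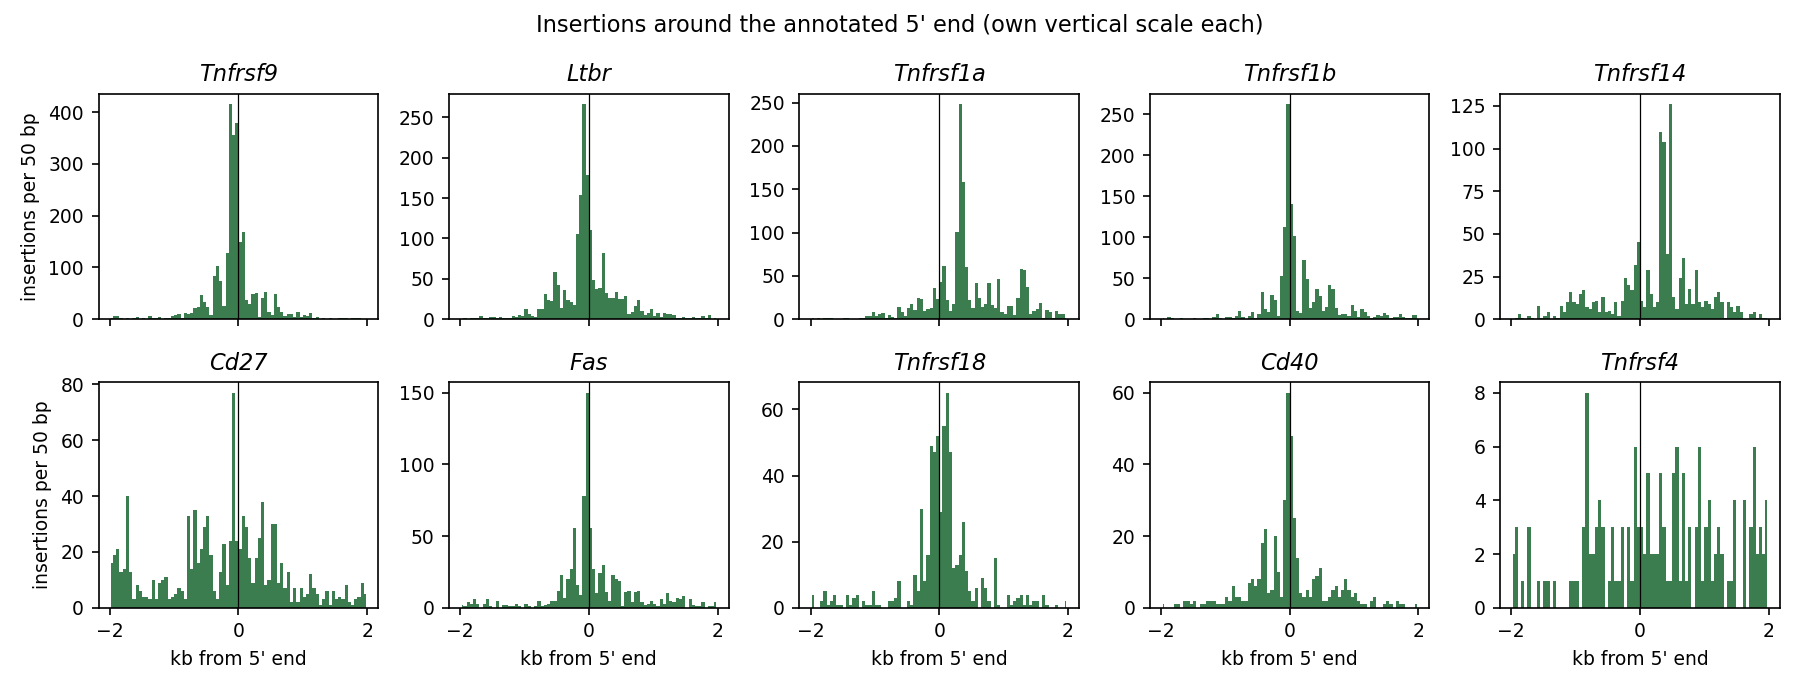
Insertions per 50 bp within 2 kb of the most upstream annotated start of each gene, all kept cells together, with a vertical scale for each panel. Ltbr, Tnfrsf9, Tnfrsf1b, Fas and Cd40 peak at or just before the start. Tnfrsf1a and Tnfrsf14 peak inside the gene, near further annotated starts. Cd27 is broad, and Tnfrsf4 shows no peak.

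Within 20 kb of the 10 genes there were 53 distinct sites. Of these 17 lay at annotated starts, 15 in introns, 4 in exons and 17 between genes, and their median rank was the 70.8th percentile of all sites. RUNX letters occurred within 300 bp of sequence at the centre of 12 of the 53 sites (22.6%), against 26.2% of all sites. AP-1 letters occurred in 8 (15.1%, against 12.4%), GATA letters in 4 (7.55%, against 12.7%) and NF-kB letters in 3 (5.66%, against 4.49%). ETS, KLF/SP and E-box letters occurred in 3.77%, 30.2% and 20.8% of them, against 5.14%, 22.1% and 19.7% of all sites.

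The other genes of the pathway were read in the same way. All 12 adaptor genes lay above the median protein-coding promoter, from Tradd (12.9 CPM), which links TNFR1 to cell death, to Birc2 (65.4), a ubiquitin ligase of the receptor complex. Of 10 ligand genes 4 did, with Tnfsf14, the ligand of HVEM, highest (14.4) and Cd40lg, the ligand of CD40, lowest (0.0779). Cd70, the ligand of CD27, had 2.88 and Tnfsf18, the ligand of GITR, 1.92 CPM. Of 18 other receptor genes 9 lay above the median, from Tnfrsf13b (0.104), the B cell receptor TACI, to Relt (44.4). Median levels were 11.3 for the 10 members, 32.7 for adaptors, 9.62 for other receptors and 5.31 for ligands.

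The cells were then divided by CD357 count, to ask whether the chromatin of Tnfrsf18 followed the antigen. CD357-high cells had at least 5 tags (968 cells) and CD357-low cells at most 1 (1200 cells), the cuts nearest to the upper and lower 25%. Their median fragments were close (10407.5 and 10292.5), but the high cells carried more tags of the other antibodies, 32.0 on average against 26.2. What part those tags had in the groups was not tested.

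Tnfrsf18 had 80 fragments over the gene and 2 kb upstream in CD357-high cells (7.49 CPM) and 110 in CD357-low cells (8.78 CPM). The log2 ratio was -0.23, with an interval of -0.66 to 0.20 that included 0. At the promoter the counts were 69 and 99, and the log2 ratio was -0.29 (-0.76 to 0.17). Accessibility of Tnfrsf18 was thus not detectably higher where its product was high, and the upper bound was 0.20 on the log2 scale. With CD357 as a centred log ratio over the 12 antibodies the value for the gene changed sign, to 0.12 (-0.35 to 0.60). In that split the mean of the other tags was closer between groups, 29.1 in high and 28.4 in low cells.

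The reverse reading was also made. CD357 averaged 3.23 tags (3.01 to 3.46) in cells with a Tnfrsf18 promoter fragment and 3.26 (3.20 to 3.32) in cells without. The variance between cells was 2.89 and 2.72 times the mean, so these intervals are too narrow for a mean per cell. By class of tags, the gene had 8.78 CPM at 0 to 1 tags, 9.29 at 2 to 4, 8.49 at 5 to 7 and 5.43 (3.27 to 8.47) at 8 or more. The last class rested on 19 fragments in 314 cells. Its interval overlapped those of the other classes, but its value lay below their lower bounds of 7.22, 7.82 and 6.50. No ratio between single classes was computed.

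None of the 9 members with at least 100 fragments differed by 1.5-fold between CD357-high and CD357-low cells, where 0.210% of 20501 genes were at least 1.5-fold higher and 0.215% at least 1.5-fold lower. Log2 ratios of the other members ran from -0.09 at Cd27 to 0.11 at Tnfrsf1a, and their median with Tnfrsf18 was 0.02, against 0.00 over all genes tested. At the promoter the value of Cd27 was 0.24 (-0.16 to 0.65). Tnfrsf4, with 36 and 28 fragments, had 0.59 (-0.16 to 1.36) and lay below the minimum. Counted without that minimum it was the 1 of 10 members past 1.5-fold, where 7.43% of 30044 genes were higher and 6.94% lower. None of the 9 promoters tested passed 1.5-fold either (0.225% of 15539 were higher and 0.341% lower), nor any of 36 sites (0.750% of 33331 higher and 1.02% lower).

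At the sites of the members, 5 of 36 had a CD357 interval that left out 0, against 6.82% of all sites tested. Of the 2 sites at the start of Cd27, the one at 41 bp upstream had 0.53 (0.02 to 1.06), and the one at 541 bp upstream, below the minimum with 27 and 38 fragments, had -0.26 (-1.03 to 0.49). The site at the start of Tapbpl had 0.36 (0.03 to 0.70). The upstream site of Tnfrsf14 had 0.41 (0.10 to 0.73), and the site 4611 bp before Tnfrsf9, a start of Park7, had 0.20 (0.01 to 0.40). The downstream site of Cd40 had -0.41 (-0.81 to -0.02). Among the 17 sites below the minimum, 1 had such an interval, the intergenic site 12276 bp upstream of Cd40, with 10 and 33 fragments and -1.44 (-2.68 to -0.44), past 1.5-fold. The site 8213 bp upstream of Tnfrsf18, which is also the one nearest to the start of Tnfrsf4, was the other of these 17 past 1.5-fold, with 28 and 18 fragments and 0.85 (-0.04 to 1.81). The sites at the start of Tnfrsf18 and at 5587 and 7487 bp downstream had -0.19, -0.28 and 0.12, with intervals that included 0. None of the 9 gene regions or 9 promoters had such an interval, where 8.09% of genes and 6.42% of promoters did.

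**Figure D4:**
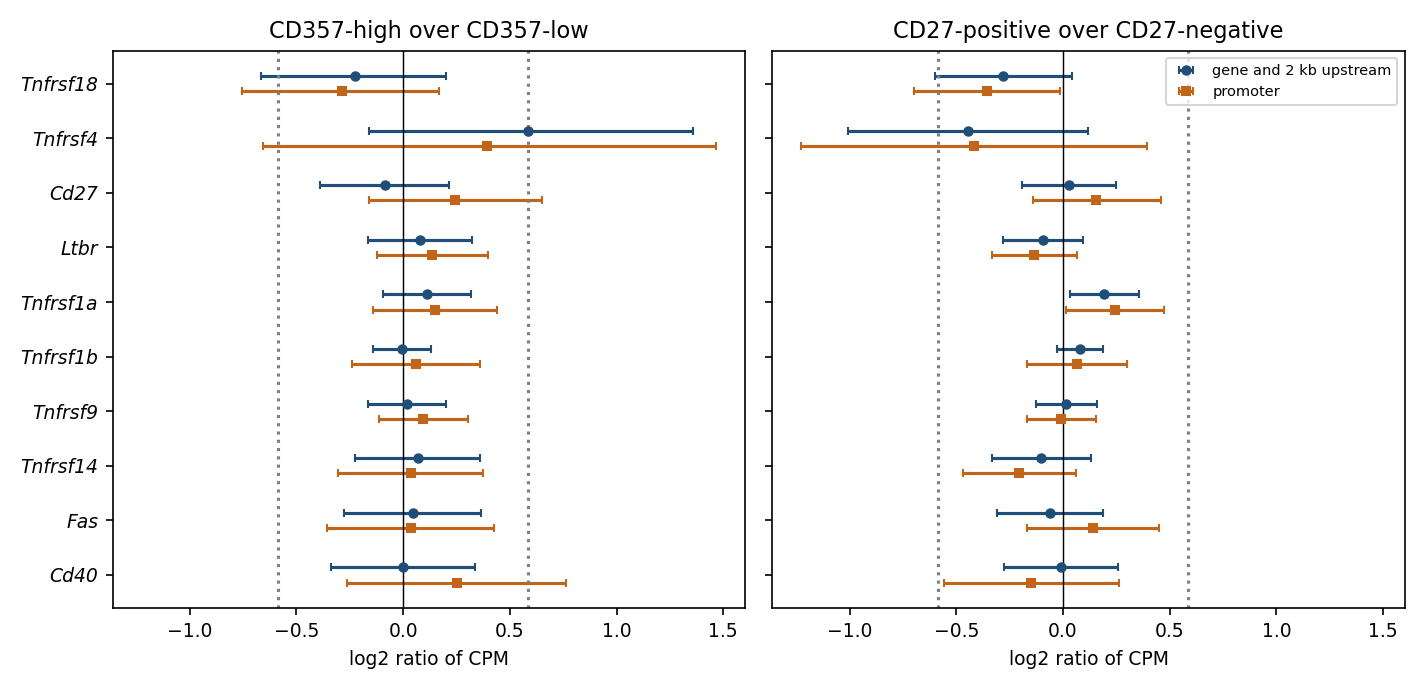
Log2 ratios of CPM for each gene with 2 kb upstream (circles) and its promoter (squares), CD357-high over CD357-low cells on the left and CD27-positive over CD27-negative cells on the right, with 95% conditional binomial intervals; dotted lines mark 1.5-fold. Of the points with at least 100 fragments none lies past a dotted line, and Tnfrsf4 has the widest intervals.

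For CD27, cells with at least 1 tag (2051) were compared with cells with none (1578), at median depths of 10305 and 10225.5 fragments. The mean of the other tags was 31.8 in positive and 29.0 in negative cells. Cd27 itself had 400 and 294 fragments (18.2 and 17.8 CPM), a log2 ratio of 0.03 (-0.19 to 0.25). At its promoter the counts were 234 and 157, with 0.16 (-0.14 to 0.46). Cells with a Cd27 promoter fragment carried 0.973 CD27 tags (0.871 to 1.08), and cells without carried 0.904 (0.872 to 0.937). The variance of these tags between cells was 1.10 and 1.27 times the mean. By class the gene stood at 17.8 CPM with no tag, 17.9 with 1, 18.97 with 2 and 17.8 with 3 or more. A difference in the chromatin of Cd27 between CD27 classes was thus not detectable beyond counting error. The classes rest on few tags, 0.910 per cell with a variance of 1.26 times the mean, where counting alone gives a variance equal to the mean. How well they separate cells by antigen level was not tested.

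**Figure D5:**
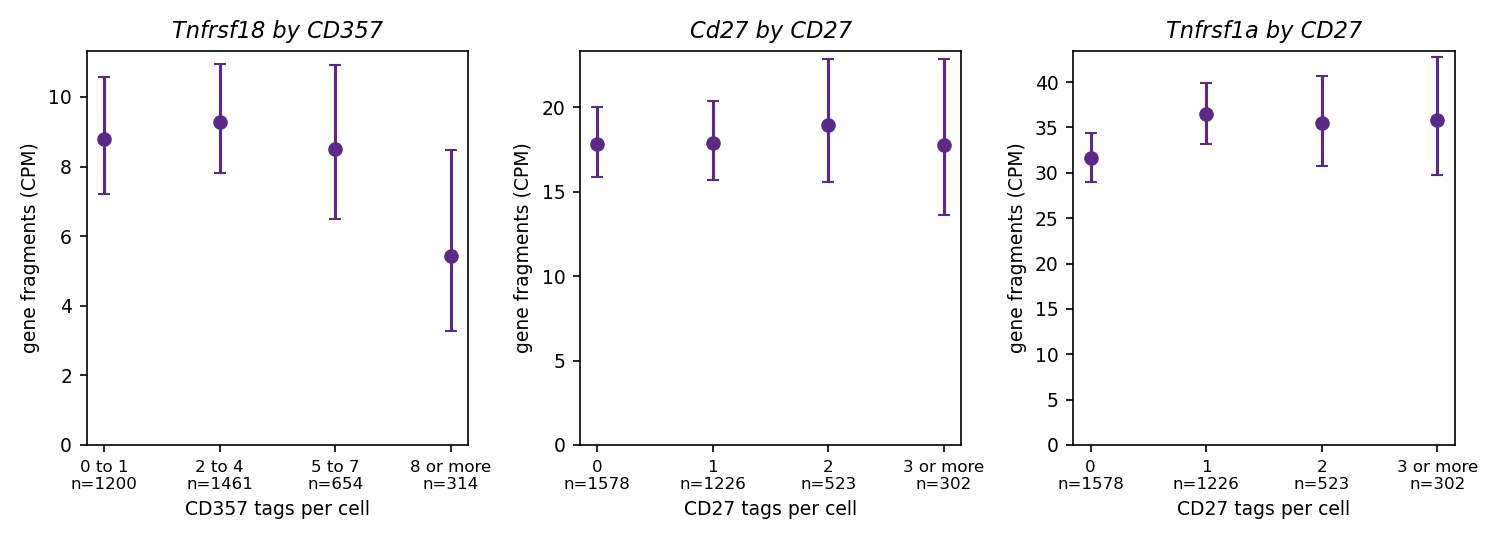
Fragments CPM over the gene and 2 kb upstream by antibody tags per cell, with 95% Poisson intervals and the number of cells in each class. Tnfrsf18 lies between 5.43 and 9.29 over CD357 classes, Cd27 between 17.8 and 18.97 over CD27 classes, and Tnfrsf1a is 31.6 with no CD27 tag and at least 35.5 with any.

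The only one of the 10 gene regions whose CD27 interval left out 0 was Tnfrsf1a. It had 795 fragments in CD27-positive and 521 in CD27-negative cells (36.1 and 31.6 CPM), a log2 ratio of 0.19 (0.03 to 0.35). At its promoter it had 0.24 (0.01 to 0.47), and at its start site 0.26 (0.02 to 0.50). Promoter and start site lie within the gene region, here and at Tnfrsf18, so these readings share fragments and do not repeat each other independently. Tnfrsf18 went the other way. Its promoter had 148 and 142 fragments (6.72 and 8.62 CPM), or -0.36 (-0.70 to -0.02), and over the gene the value was -0.28 (-0.60 to 0.04). Tnfrsf4, its neighbour, had -0.44 (-1.01 to 0.12) from 55 and 56 fragments. With CD27 as a centred log ratio it had -0.80 (-1.64 to -0.01) from 22 and 37 fragments, past 1.5-fold but below the minimum of 100, and between cells with at least 2 CD27 tags and cells with none -0.62 (-1.46 to 0.12).

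These were 1 of 10 gene regions and 2 of 9 promoters with an interval that left out 0, where 6.57% of all genes and 6.19% of all promoters tested did so. None of the 10 genes, 9 promoters or 45 sites with at least 100 fragments passed 1.5-fold between CD27 groups. Of 8 sites below that minimum 2 did, at 0.60 (an intron 11059 bp downstream of the start of Cd27) and 0.62 (20115 bp upstream of Fas), with intervals that included 0. The background was 0.183% of 21829 genes higher and 0.124% lower, 0.161% of 16749 promoters in each direction, and 0.784% of 46818 sites higher and 0.487% lower. Without the minimum none of the 10 genes passed either, where 5.66% of 30298 were higher and 5.91% lower. Among sites 4 of 45 had an interval that left out 0, against 5.99% of all. Besides the starts of Tnfrsf18 (-0.38, -0.73 to -0.02) and Tnfrsf1a these were the intronic site of Tnfrsf1b shown above, with 0.32 (0.10 to 0.53), and an intronic site of Park7 near Tnfrsf9, with -0.48 (-0.88 to -0.09). With CD27 as a centred log ratio the value of Tnfrsf1a was 0.10 (-0.12 to 0.32), with at least 2 CD27 tags against none it was 0.17 (-0.03 to 0.38), and in cells with at least 50 tags it changed sign, to -0.12 (-0.62 to 0.42).

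Both antigens together were read in 564 cells that were CD357-high and CD27-positive and in 543 that were CD357-low and CD27-negative. The first number was 1.03 times and the second 1.04 times that given by independent counts. This comparison was added after the values above were seen. Tnfrsf18 had 43 fragments in the former and 58 in the latter, a log2 ratio of -0.61 (-1.22 to -0.02). That value was 1.5-fold lower, on a total just past the minimum of 100 fragments. It was the 1 of 9 members tested past 1.5-fold, where 0.432% of 18512 genes were at least 1.5-fold lower and 0.259% higher. These shares take in genes with many more fragments, and a gene near the minimum passes 1.5-fold through counting error more readily. Tnfrsf1a had 237 and 161 fragments, or 0.37 (0.08 to 0.67). These 2 of 9 members had an interval that left out 0, where 7.26% of all genes tested did so. Cd27 had 106 and 111, or -0.25 (-0.65 to 0.15), and the other 6 members tested ran from -0.08 at Tnfrsf14 to 0.12 at Fas. Tnfrsf4 had 19 and 10 fragments, below the minimum, with 0.71 (-0.43 to 2.01). These cells were part of the groups compared above and do not repeat them independently.

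The pathway lists were compared between the same groups. No ligand, adaptor or other receptor gene with at least 100 fragments differed by 1.5-fold in either comparison, where, as given above, 0.210% and 0.215% of all genes did by CD357 and 0.183% and 0.124% by CD27. The median log2 ratio by CD357 was -0.25 over 5 ligand genes, 0.02 over 18 other receptors and 0.01 over 12 adaptors, and by CD27 it was 0.07, 0.06 and -0.02, with 8 ligand genes tested. Summed over the list, ligands had -0.13 by CD357 (-0.25 to -0.02). Of the marker lists, summed macrophage and granulocyte genes had 0.15 (0.02 to 0.29) by CD357, and no other list had an interval that left out 0 in either comparison. Erythroid genes had 0.10 (-0.04 to 0.23) by CD357, T cell genes 0.07 (-0.02 to 0.17), HSC genes 0.03, megakaryocyte genes -0.00061 and B cell genes -0.08 (-0.18 to 0.03). The T cell sum and the median over its 5 genes tested, -0.06, had opposite signs, and Lck and Cd3d held most of the T cell fragments. What part cells of these types had in the values of the members was not tested.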

How the data were processed

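Per the file headers, fragments and UMIs were made by the authors with cellranger-arc 2.0.2 on mm10, where duplicates are collapsed, ends are shifted for the transposase and cells are called. Tags were counted with CITE-seq-Count, with its version not given in the sources used here. Deposited values are raw counts without normalization: fragments, UMIs and antibody tags per barcode. Antibody counts were matched to ATAC barcodes, and cells with fewer than 10 tags were left out. Doublets were not removed, and the RNA matrix was not analysed here.

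Fragments were counted over GENCODE M21 genes with 2 kb upstream and over promoters (1 kb on each side of the most upstream start). At open sites the fragments held and their ranks were counted in 500 bp at the centre. Site ratios between groups with their minimum, shares of short fragments and cells with a fragment were read over the whole called site. Sites were 100-bp windows whose insertions exceeded the larger of the genome mean and the mean over the surrounding 10 kb at a Poisson p of 1e-05, joined across 200 bp and at least 200 bp long. For log2 ratios 0.5 was added to both counts, and ratios needed 100 fragments over both groups to be counted against 1.5-fold. Named were the 10 members, the highest and lowest gene of each pathway list and genes sharing a window or site with a member. Cd70, Tnfsf18, Kit, Mecom, Slamf1, Ly6a, Lck, Cd3d and Ttll10, and the pairs read for fragments in the same cell, were chosen after their values were seen. The members and lists were chosen with earlier results of these data known. Interval and site calling were tested on simulated data. Alternatives were other tag minimums, antibody scales, cuts, promoter widths, scalings and site thresholds, and leaving out the deepest 5% of cells. Software was Python 3.11.15, numpy 2.4.6, scipy 1.17.1, pandas 2.3.3 and matplotlib 3.10.9.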

Additional observations from a re-analysis of the deposited data

Results flagged for a closer look

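The 645 called cells without antibody counts, which entered no comparison, also held fragments at the receptor promoters. They held 178 promoter fragments of the 10 genes, or 138.8 CPM (119.2 to 160.8), against 135.5 CPM (131.8 to 139.2) in the kept cells. They were shallower, with 1282313 nuclear fragments in all, against 38498362 in the 3629 kept cells.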

How the results depend on the processing

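No paired analysis was possible because the 3 libraries came from 1 pool and no group had replicates. In cells with at least 50 tags the CD357 log2 ratio of Tnfrsf18 was -0.95 (6 and 9 fragments), with the cuts nearest to 25% then at 8 and 2 tags. With the cuts of 5 and 1 kept, an alternative chosen after seeing the data, it was -0.50 (21 and 6 fragments), within the first interval, and Tnfrsf4 turned from 0.59 to -0.019 (11 and 2 fragments). In cells with at least 50 tags the CD27 ratio of Cd27 was 0.52 (56 and 14 fragments), and summed gene fragments of the members were 259.4 CPM, against 251.3. Without the minimum of 100 fragments, 1 member, Tnfrsf4, passed 1.5-fold by CD357. Promoters of 500 bp on each side gave 119.2 in place of 135.5 CPM summed over the members, and sites numbered 44 at a Poisson p of 1e-10 and 60 without joining. Of the other alternatives to these and to the ratios of single members, those with the cuts kept aside, 155 stayed within the first interval (or within 1.5 times a count) and 9 ratios of single members did not, 8 of them in cells with at least 50 tags. With few fragments per promoter and cell and 1 pool, a log2 difference inside the intervals given was not detectable at this depth, and spread between animals was not measured.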
